A study of Mus musculus with 4 samples.

Results

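Malat1, Neat1, Miat, Gas5, Snhg1, Snhg12 and Kcnq1ot1 are long noncoding RNAs that stay in the nucleus or are made as hosts of small nucleolar RNAs (snoRNAs), and the question here was where along them m6A (N6-methyladenosine) was found in mouse natural killer (NK) cells. A peak belonged to a gene when the gene identifier in the list of m6A peaks was the Ensembl identifier of that gene. By this rule 13 of 20727 distinct peaks belonged to 3 of the 7 genes, with 11 at Neat1, 1 at Malat1 and 1 at Snhg12, and the other 4 genes had none. The share of genes with a peak was 8.64% among 10155 annotated long noncoding RNA genes and 22.2% among all annotated genes. The 7 genes were picked by name and not at random, so their 3 of 7 is a description.

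The RNA came from splenic NK cells of wild-type C57BL/6 mice, sorted after the cells had been expanded in the animals with a plasmid that expresses IL-15, the pLIVE-IL-15 plasmid, and both groups share this treatment. There were 4 libraries from poly(A) RNA cut into short fragments: 2 m6A immunoprecipitates made with an antibody from Synaptic Systems, and 2 inputs that saw no antibody. The labels give no age for these samples (the methods of the study state a range in weeks for its mice in general), and do not say whether the replicates came from separate mice. The list holds 1 fold enrichment (immunoprecipitate over input reads) and 1 log10 p-value per peak for all libraries together. There was therefore no value per sample, no error between replicates and no test of a difference, and the depth of the libraries is unknown. A peak is also not an expression level, so that a gene without a peak may lack m6A or may have had too few reads, which cannot be told apart. Of the markers listed, all 11 NK cell genes had a peak, as did 3 of 5 T cell, 2 of 4 B cell, 4 of 4 myeloid and 2 of 3 erythroid genes, beside the 22.2% of all annotated genes. The haemoglobin genes Hbb-bs and Hba-a1 had log10 p of -2440 and -788, stronger than any NK marker, of which Gzma was the strongest at -624. The part of other cells in the peaks below was not tested.

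m6A is set on RNA by a METTL3-METTL14 complex, mostly at adenosines within DRACH, a pattern of 5 bases where D stands for any base but C, R for a purine and H for any base but G (U is written as T throughout). GGAC, and above all GGACT, are the forms of it methylated most often. Malat1 is an abundant RNA of nuclear speckles, and Neat1 is the scaffold of paraspeckles. Neat1 is made as a short polyadenylated isoform and as a long isoform that shares its 5′ part, and the 3′ ends of Malat1 and of long Neat1 are cut by RNase P and carry no ordinary poly(A) tail. Host genes such as Gas5, Snhg1 and Snhg12 carry snoRNAs in their introns, while their spliced exons are exported and decay quickly. Kcnq1ot1 is an unspliced antisense RNA from the paternal allele of the Kcnq1 domain, where it silences neighbouring imprinted genes.

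The sequences under the peaks show how far these RNAs offered the consensus. The windows below are the DRACH sites of the most significant peak of each gene with a peak by identifier, at most 3 per gene, with GGACT taken before other GGAC and these before other DRACH sites, and then by distance to the centre of the peak. Each holds 25 bases of the GRCm38 reference in 5′ to 3′ direction on the strand of the gene, and capitals mark the DRACH site.
Malat1 site 1, chr19:5799361-5799385, minus strand: gagggaggggAAACCtttttttttc
Malat1 site 2, chr19:5799438-5799462, minus strand: tgtttatttgTAACTtataatttaa
Malat1 site 3, chr19:5799343-5799367, minus strand: ttttttctgtAGACCtttttcagat
Neat1 site 1, chr19:5844552-5844576, minus strand: taaaggtggaGGACAccctgactgg
Neat1 site 2, chr19:5844544-5844568, minus strand: gaggacacccTGACTgggcggggag
Neat1 site 3, chr19:5844640-5844664, minus strand: gggtcacttaAAACCttgcccctgg
Snhg12 site 1, chr4:132310941-132310965, plus strand: ctacattgagAAACCtcattttggg
Snhg12 site 2, chr4:132310977-132311001, plus strand: ctttgtcaatTAACAtgcagttggt
Snhg12 site 3, chr4:132310999-132311023, plus strand: ggttcaataaAGACTtttggaaagt
Of these 9 windows only Neat1 site 1 is centred on a GGAC, and none is centred on GGACT. The Malat1 windows are rich in T, and the Snhg12 windows lie in the last bases of the gene.

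Snhg1 and Kcnq1ot1 had no peak by identifier, but peaks over their exons were listed under other genes (described further on). Windows of the most significant of these peaks, added after their values were seen, follow the same rule.
Snhg1 site 1, chr19:8726150-8726174, plus strand: ctggttacctAGACAgcctatagtc
Snhg1 site 2, chr19:8726137-8726161, plus strand: gggttgggggAAACTggttacctag
Snhg1 site 3, chr19:8726229-8726253, plus strand: tatcttgcagGAACAgaaatcatga
Kcnq1ot1 site 1, chr7:143225430-143225454, minus strand: ggagagagctGGACTgctgacagag
Kcnq1ot1 site 2, chr7:143225767-143225791, minus strand: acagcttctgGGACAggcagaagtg
Kcnq1ot1 site 3, chr7:143225740-143225764, minus strand: atggcttctgGGACAgaccccgttt
The label of the Snhg1 peak names the transcript Snhg1-211. In it Snhg1 sites 1 and 2 lie in the intron between exons 9 and 10, and the window of site 3 spans the start of exon 10. They count as exonic only because the exons of all annotated isoforms together cover the whole of Snhg1. In Kcnq1ot1 all 3 windows are centred on GGAC and site 1 on GGACT. They were taken, however, from 134 DRACH sites in a wide peak, against 7 in Snhg1 and 3 to 5 in the other genes. The GGACT of site 1 was the only such site in that peak and lay 328.5 nt from its centre.

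Compared with the list as a whole, the 13 peaks were narrow and of low fold enrichment. Their median fold enrichment was 1.54 (interquartile range 1.37 to 2.36), against 2.66 (1.73 to 9.48) over all peaks and 9.48 (3.16 to 20.9) over 1084 peaks of long noncoding RNA genes. Their median width was 149 nt, against 300 nt and 1055 nt. Peaks of similar exonic length had median fold enrichments of 1.77 to 2.14 for the narrow peaks and 11.4 for the widest. Above these medians lay Malat1 (2.98), Neat1 peaks 1 to 4 from the 5′ end (2.2 to 2.36) and Neat1 peak 11 (20.9). Neat1 peaks 5 to 10 (1.22 to 1.41) and Snhg12 (1.54) lay below them. In significance the 13 peaks were not weak, with a median log10 p of -8.05. It was -4.1 over all peaks and -3.33 over those of long noncoding RNA genes. Of the 13, 7 had a fold enrichment under 2, 5 lay between 2 and 3, and 1 was strong, a word kept here for a fold enrichment of at least 5. Over all peaks 34.6% were strong, and over long noncoding RNA peaks 64.5%. A p-value under 0.001 was found in 12 of the 13, against 61.5% of all peaks and 52.9% of long noncoding RNA peaks. Since 11 of the 13 belong to Neat1, these medians are mostly those of 1 gene. Overlapping Neat1 peaks were counted singly here. With 1 value for each of 8 separate places, the median fold enrichment was 1.875.

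**Figure D1:**
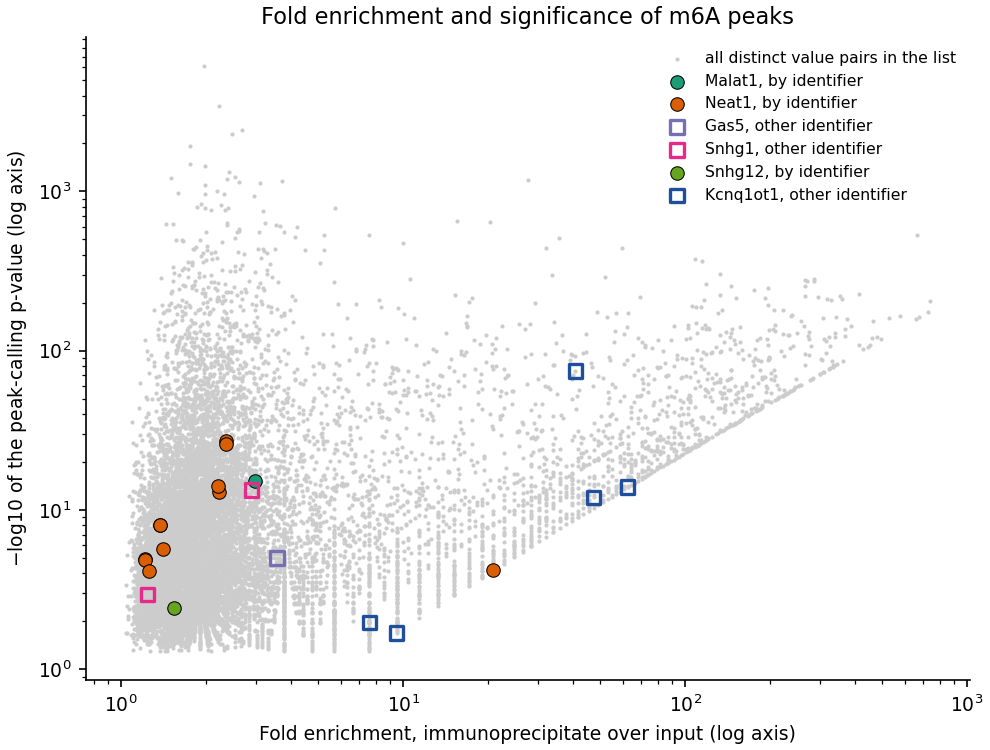
Fold enrichment of immunoprecipitate over input (x, log axis) against the negative log10 of the peak-calling p-value (y, log axis) for m6A peaks of mouse splenic NK cells. Grey points are all distinct pairs of values in the list, filled circles are peaks listed under one of the 7 genes, and open squares are peaks over their exons listed under another gene. Of the filled circles 12 of 13 lie at a fold enrichment under 3 and 1 Neat1 peak at 20.9, while the Kcnq1ot1 squares reach 62.6.

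Malat1 (ENSMUSG00000092341, chr19:5795690-5802672, minus strand of GRCm38) is annotated as 1 exon of 6983 nt in its longest isoform, and carried a single narrow peak near its middle. The peak (chr19:5799316-5799496, 181 nt) had a fold enrichment of 2.98 at a log10 p of -15.2. It covered nt 3177 to 3357 of the transcript, 2.59% of its length, with the centre at 46.8%. In the whole list 53.3% of peaks had a lower fold enrichment and 17.6% a stronger p-value, which puts Malat1 near the middle by fold and in the upper part by significance. The peak touched 1 of 4 annotated Malat1 isoforms, the full-length one.

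The Malat1 peak was denser in DRACH than the rest of the transcript, but it held none of the forms most often methylated. There were 5 DRACH sites in the peak, or 27.6 per kb, against 17.2 per kb in the rest of Malat1. None of the 16 GGAC sites and none of the 9 GGACT sites of Malat1 lay in the peak, and the nearest GGAC was 252 nt away. Among 4422 peaks of similar exonic length, 46.2% held a GGAC and 16.7% a GGACT, so that a peak without them is common at this length. The GC content of the peak was 34.3%, against 42.5% over Malat1 as a whole, and runs of T stand in sites 1 and 3 above. Both densities rest on 1 peak and have no error.

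Neat1 (ENSMUSG00000092274, chr19:5824708-5845478, minus strand) lies 22035 nt from Malat1 on the same chromosome and strand, and is annotated as 1 exon of 20771 nt in its longest isoform. It was among the 6 genes with the most peaks, each with 11 or more. Over the list, 0.0729% of genes with a peak had 10 or more. Neat1 owed this rank to peaks listed in pairs. Its 11 peaks formed 5 overlapping pairs and 1 single peak, so that they marked 6 separate places, and 77 genes had at least that many. In the whole list 8.44% of peaks overlapped another peak of the same gene, against 10 of 11 in Neat1. The members of a pair differed by 0 to 17 nt at either end and were close in fold enrichment and significance apart from peaks 9 and 10, and each pair is read here as 1 place.

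The first 5 places lay in the 5′ part of Neat1. Numbered from the 5′ end, peaks 1 and 2 covered nt 1 to 152, with fold enrichments of 2.22 and 2.2 and log10 p of -13 and -14.1. Peaks 3 and 4 covered nt 793 to 972, each with a fold enrichment of 2.36, and had the strongest significance of the 13 peaks (log10 p -27 and -26). The Neat1 windows above were taken from peak 3. Peaks 3 and 4 also overlapped Gm27505, a small noncoding RNA annotated on the same strand, by 32 and 49 nt. Reads of the 2 genes cannot be told apart there.

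The next 3 places were weaker. Peaks 5 and 6, at nt 2009 to 2072, both had a fold enrichment of 1.22, with log10 p of -4.94 and -4.86. Peaks 7 and 8, at nt 2399 to 2519, shared a fold enrichment of 1.37 at a log10 p of -8.05. Peaks 9 and 10, at nt 3113 to 3178, had fold enrichments of 1.41 and 1.26 and log10 p of -5.7 and -4.14. Nearly all of the list lay above 1.22, since 2.19% of peaks had a lower fold enrichment.

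The single peak 11 stood apart from the other 10. It lay in the middle of the long isoform (chr19:5834569-5835408, nt 10071 to 10910), was 840 nt wide against 60 to 180 nt for the others, and had a fold enrichment of 20.9, higher than that of 88.4% of all peaks. Its log10 p was only -4.18, close to the median of the list. In all, 113 peaks of the list carried exactly this pair of values, whereas no pair of values of Neat1 peaks 1 to 10 occurred in more than 2 peaks. The only high fold enrichment at Neat1 thus rests on a peak whose values recur often, and what these peaks share was not tested.

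Several ends of Neat1 peaks fell on annotated ends of its isoforms. Peak 1 ended on the 5′ end of the long isoform Neat1-201 (position 5845478), and peak 2 on that of the short isoform Neat1-202 (5845476). Peak 9 ended on the 3′ end of Neat1-202 (5842307). The first 3172 nt, up to that end, held 10 of the 11 peaks (peak 10 reached 6 nt past it) and 5 of the 6 places, and 18.2% of them were covered. The remaining 17599 nt, which long Neat1 shares in part with the annotated isoform Neat1-204, held peak 11 and were covered to 4.77%. DRACH was spread more evenly, at 19.9 sites per kb in the first stretch and 19.3 per kb in the remainder. GGACT was denser in the first stretch, with 6 sites in 3172 nt against 17 in 17599 nt. Peaks in the shared stretch cannot be given to the short or the long isoform. The libraries were made from poly(A) RNA, and long Neat1 carries no ordinary poly(A) tail. The part of this selection in the unequal coverage was not tested.

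Unlike in Malat1, the Neat1 peaks were poorer in DRACH than the remainder of the gene. The peaks held 13.4 DRACH sites per kb, against 19.8 per kb outside. Of 23 GGACT sites, 2 lay in a peak, 1 in the overlap of peaks 5 and 6 and 1 in peak 11. Peak 11 had the lowest density, with 10.7 DRACH sites per kb over its 840 nt, and carried 9 of the 19 sites. The 10 narrow peaks ranged from 13.2 to 33.3 per kb and together held 10 sites in 583 nt. That is 17.2 per kb against 19.5 per kb elsewhere in Neat1, so that most of the gap came with peak 11. GGAC and GGACT were denser in the narrow peaks than elsewhere, at 5.15 against 3.96 and 1.72 against 1.09 per kb, from 3 and 1 sites. Over all 11 peaks GGAC was at 3.51 against 4.03 per kb, and GGACT at 1.41 against 1.09 per kb.

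**Figure D2:**
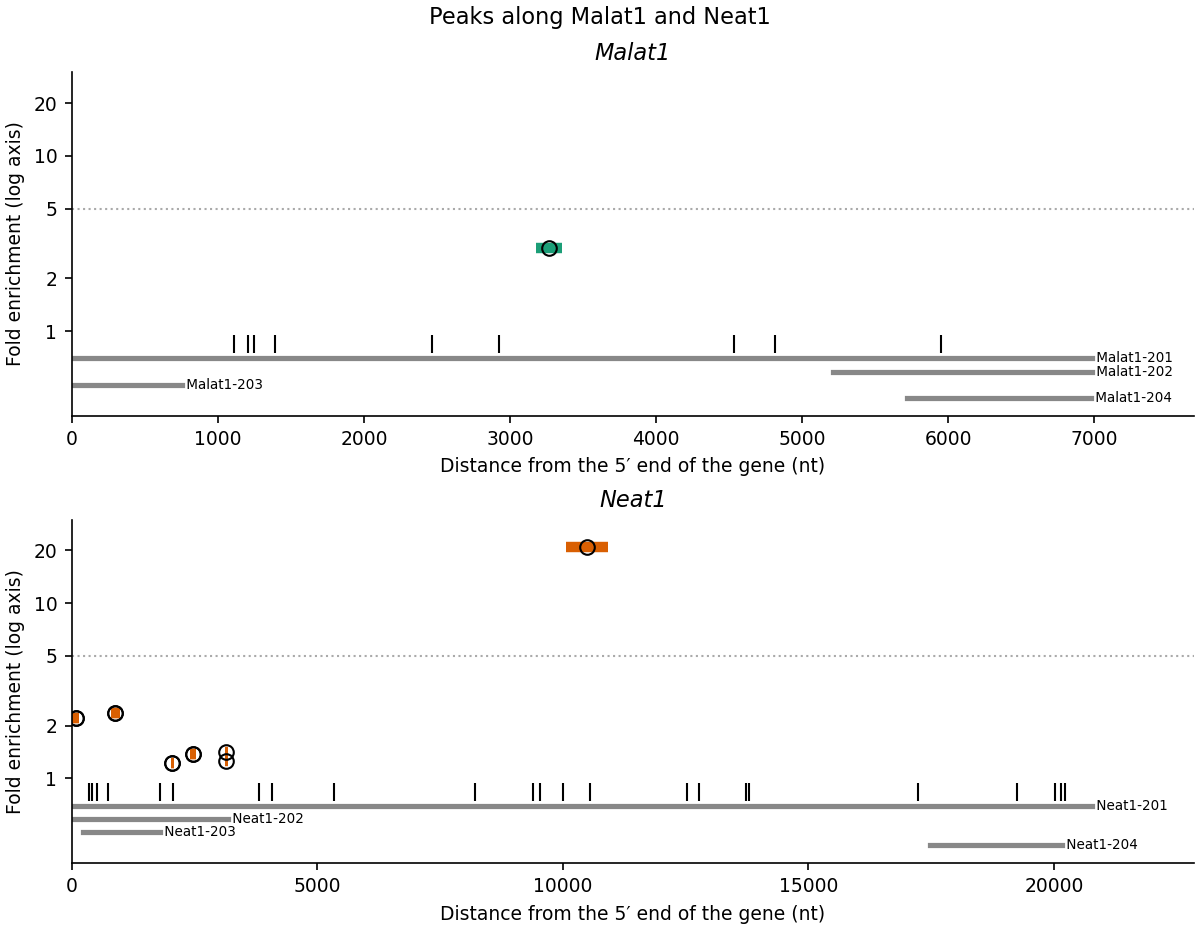
Peaks along Malat1 (top) and Neat1 (bottom), by distance from the 5′ end of the gene in nt (x) and fold enrichment (y, log axis). Coloured bars are the spans of the peaks and open circles their centres, the dotted line is a fold enrichment of 5, black ticks are sites of the most often methylated 5-base form, and grey bars are the spans of annotated isoforms. In Malat1 the peak at 2.98 lies between ticks, and in Neat1 10 of 11 peaks lie within the span of Neat1-202, or across its 3′ end, at fold enrichments of 1.22 to 2.36.

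Miat (ENSMUSG00000097767, chr5:112213228-112229395, minus strand), a nuclear RNA known mainly from neurons, had no peak under its own identifier, under any exon label, or anywhere over its 9293 exonic nt. It offered as much consensus as the genes with peaks. Its exons held 181 DRACH sites, 19.5 per kb, and 20 GGACT sites, against 17.5 per kb and 9 GGACT sites in Malat1 and 19.4 per kb and 23 in Neat1. Over the 7 genes, the DRACH density of all exons was 17.5 to 19.4 per kb in the 3 genes with a peak by identifier. It was 19.5 to 25.5 per kb in the 4 without. Of these 4, only Miat (19.5) had no peak over its exons. Snhg1 (21.2), Gas5 (22.9) and Kcnq1ot1 (25.5) had peaks listed under other genes, so this split does not separate genes with and without peaks. The densities use the exons of all isoforms together, which in Snhg1 and Snhg12 cover the whole gene, introns of single isoforms included.

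Snhg12 (ENSMUSG00000086290, chr4:132308623-132311024, plus strand), which hosts snoRNAs such as Snora16a, Snora44, Snora61 and Snord99, was the only one of the 3 host genes with a peak under its own identifier. The share with a peak was 13.8% among 268 long noncoding genes annotated as hosts of small RNAs and 8.5% among other long noncoding genes. The Snhg12 peak (chr4:132310876-132311024, 149 nt) had a fold enrichment of 1.54 at a log10 p of -2.41, the weakest significance of the 13 and the only one not under a p-value of 0.001. In the list 72.1% of peaks had a stronger p-value. The peak lay in the last of 4 exons, ended on the last base of the gene, and touched 9 of 10 isoforms and none of the snoRNAs. It held 3 DRACH sites, 20.1 per kb against 18.2 per kb in the rest of the gene, and no GGAC. That rest is not spliced sequence alone. The exons of all isoforms together cover all 2402 nt of Snhg12, with introns of single isoforms and snoRNAs among them.

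Snhg1 (ENSMUSG00000108414, chr19:8723475-8726443, plus strand) had peaks that its identifier did not show. Its 2 peaks were listed under snoRNAs that lie inside it, while the exon label of the same rows named an Snhg1 transcript, Snhg1-211. Peak 1 (chr19:8725514-8725604, 91 nt) was listed under the snoRNA gene Gm23246, with a fold enrichment of 1.24 at a log10 p of -2.94, and overlapped that snoRNA by 11 nt and exon 7 of 10 of Snhg1-211 by 10 nt. Peak 2 (chr19:8725933-8726443, 511 nt) was listed under Snord22, with a fold enrichment of 2.9 at a log10 p of -13.3, close to the Malat1 peak in both values. It overlapped Snord22 by 59 nt and left 452 nt outside it, took in the whole of exons 9 and 10 of Snhg1-211 (241 nt) with 270 nt of its introns, and ended on the last base of the gene.

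In Snhg1 as in Snhg12, then, a peak reached the 3′ end of the host transcript. Both Snhg1 peaks together had 13.3 DRACH sites per kb, against 23.2 per kb in the rest of the gene, and held none of its 6 GGAC sites. Over the list, 10.3% of 5848 exon-labelled peaks named another gene in the label than in the identifier. Among the 27 exon-labelled peaks with a snoRNA identifier it was 51.9%, and in 22.2% of these 27 the label named a long noncoding host. Taking identifier or label, 23.5% of the 268 host genes and 10.4% of other long noncoding genes had a peak, and so did 5 of the 7 genes here, with 19 peaks.

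Gas5 (ENSMUSG00000053332, chr1:161034422-161038539, plus strand), a host with 10 snoRNA records inside it, had no peak by identifier or label. A single peak (chr1:161034452-161035108, 657 nt) lay over its first exons, from 30 nt inside its annotated start, with a fold enrichment of 3.57 at a log10 p of -4.99. It was listed as 5′ UTR of Zbtb37, a zinc finger gene that starts there on the opposite strand. The peak overlapped 299 nt of Gas5 exons and 72 nt of Zbtb37 exons. Without a strand in the list, reads of Gas5 and Zbtb37 cannot be told apart. No DRACH site of the Gas5 strand lay in the Gas5 exons under the peak, although Gas5 has 86 in 3760 exonic nt.

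**Figure D3:**
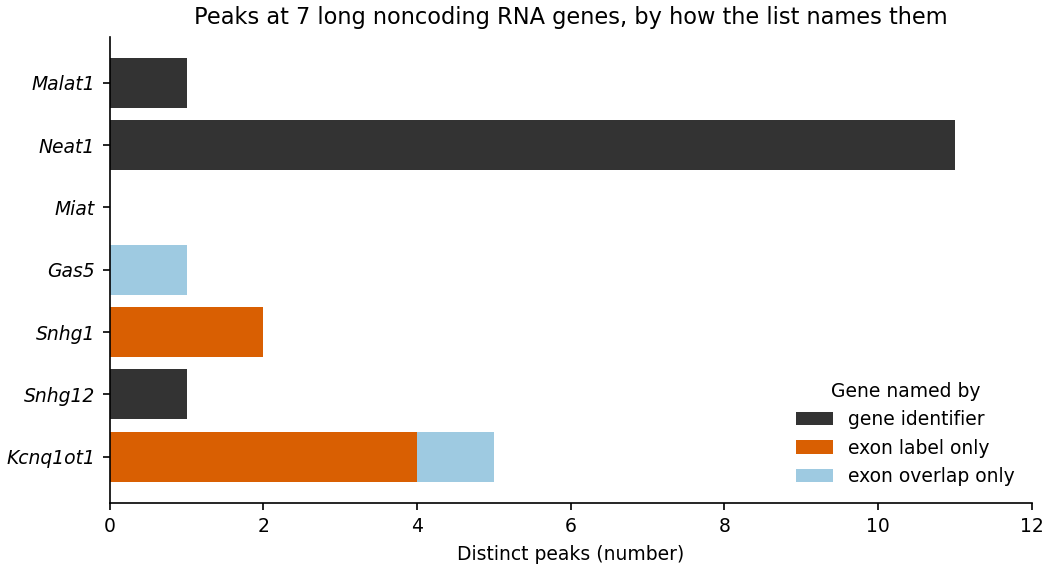
Number of distinct peaks (x) at each of the 7 genes (y), by how the list ties the peak to the gene: dark, by gene identifier, orange, by the exon label alone, light blue, by overlap with an exon alone. Snhg1 and Kcnq1ot1 have peaks only under other identifiers, Gas5 only by overlap, and Miat has 0.

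Kcnq1ot1 (ENSMUSG00000101609, chr7:143203458-143296549, minus strand) is a single exon of 93092 nt that lies inside Kcnq1, a potassium channel gene on the plus strand. All 5 peaks over it were listed under Kcnq1, and in 4 of them the exon label named Kcnq1ot1. These 4 overlapped 0 nt of Kcnq1 exons and together covered 28015 nt, or 30.1% of Kcnq1ot1. Their fold enrichments were 9.48 to 62.6 and their widths 2070 to 11757 nt, above the Malat1 peak and Neat1 peaks 1 to 10 in both. Neat1 peak 11 fell within that range of fold enrichment and was narrower. Peaks of similar exonic length also had high median fold enrichments, of 22.8 to 31.25. Numbered from the 5′ end, labelled peaks 1, 4 and 5 lay above these medians (47.4, 40.8 and 62.6) and peak 2 below (9.48). Because the list gives no strand, RNA of Kcnq1ot1 and unspliced RNA of Kcnq1 cannot be told apart.

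From the 5′ end, Kcnq1ot1 peak 1 (chr7:143276455-143287102) had a fold enrichment of 47.4 at a log10 p of -12. Peak 2 (chr7:143273696-143275765) had 9.48 and -1.69, a pair of values found in 845 peaks of the list. Peak 3 (chr7:143260590-143264669) had 7.59 and -1.96, a pair found in 12 peaks. It was the one labelled as a Kcnq1 exon, exon 11 of 16, of which it held 121 nt. Peaks 2 and 3 were thus higher in fold than most of the list, but below the medians of peaks of similar length (22.8 and 24.7). In significance they were weak, with 86.7% and 82.5% of peaks having a stronger p-value.

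Kcnq1ot1 peak 4 (chr7:143224001-143227540, 3540 nt) combined a log10 p of -74.8 with 40.8-fold enrichment, the strongest significance of any peak over the 7 genes. In the list 3.71% of peaks had a stronger p-value, and among 7179 strong peaks 295 were at least as significant. Peak 5 (chr7:143212155-143223911) followed 89 nt further on, with the highest fold enrichment of the 21 peaks over exons of the 7 genes, 62.6. Its log10 p was -13.9, and 15 peaks of the list carried this pair of values. The windows of Kcnq1ot1 printed above come from peak 4.

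Peak 4 was also dense in DRACH, though not in GGACT. It had 37.9 DRACH sites per kb, the highest density of the 5, which otherwise ranged from 18.8 to 29.1 per kb. Of GGACT it held 1 in 3540 nt, against 3 to 11 in each of the other peaks and 0.83 per kb outside the labelled peaks. Over the 4 labelled peaks the DRACH density was 26.1 per kb, against 25.2 per kb in the rest of Kcnq1ot1. In DRACH the labelled peaks as a whole thus differed little from the rest of the gene. Peak 4 held an unbroken run of 41 A on the Kcnq1ot1 strand (chr7:143226945-143226985), the longest in the gene. Of 452 peaks of similar exonic length, 0.221% held a run of A as long on the strand of their gene. The longest runs in peaks 1 (22 A) and 5 (23 A) were matched or exceeded in 11.5% and 11.8% of peaks of similar length, and so were less rare. Kcnq1ot1 has 4 runs of 20 or more A, a length chosen after the values were seen, and all 4 lay in the labelled peaks, 2 in peak 1, 1 in peak 4 and 1 in peak 5. The libraries were made from RNA selected by its poly(A), and the part of genomic A runs in these peaks was not tested.

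**Figure D4:**
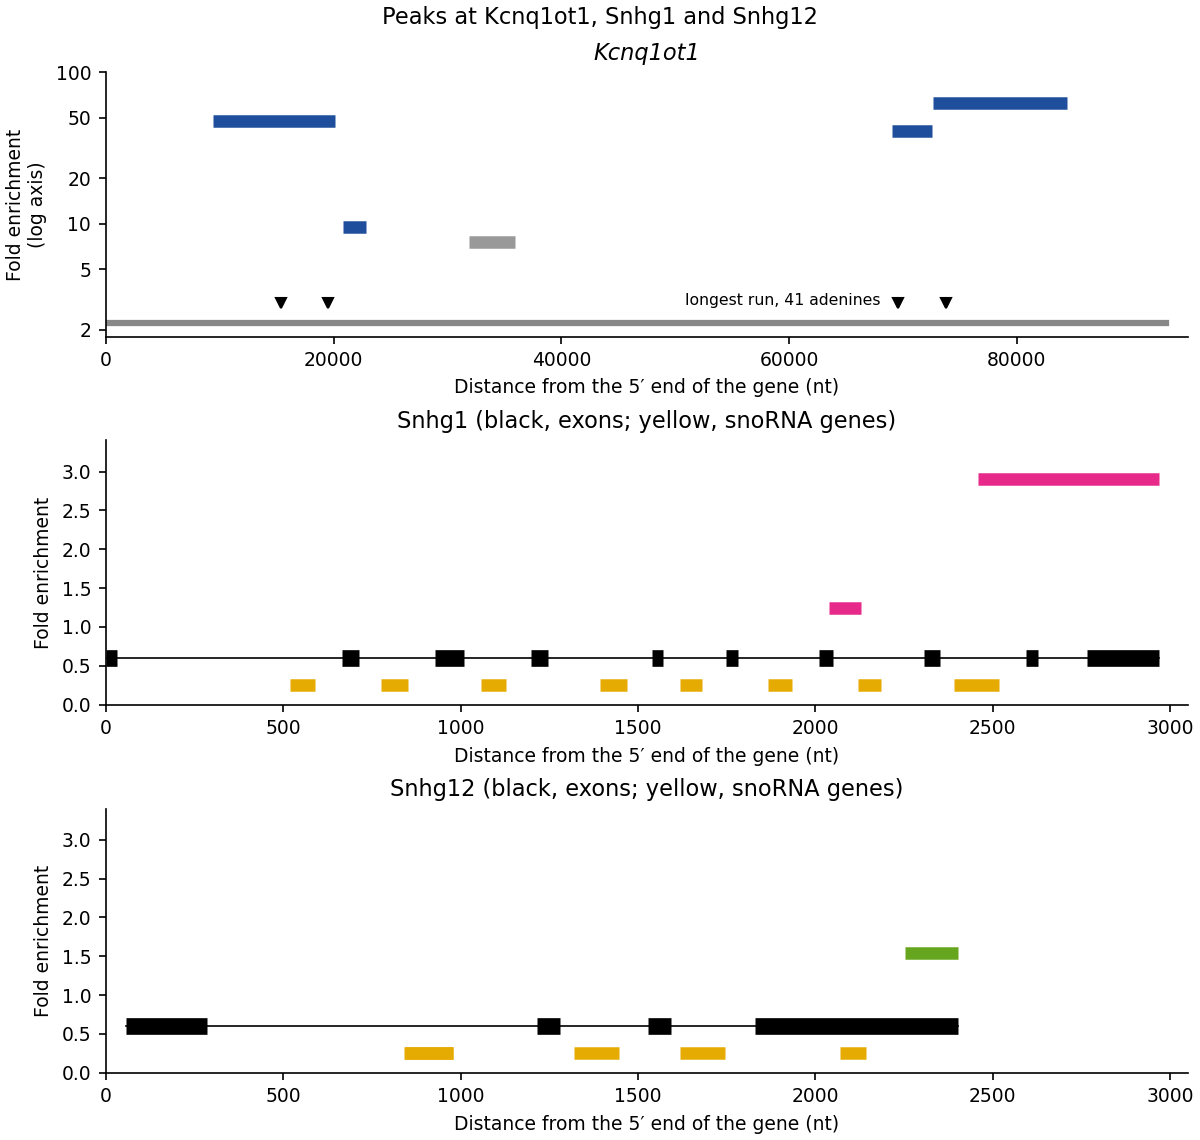
Peaks by distance from the 5′ end of the gene in nt (x) and fold enrichment (y, log axis for Kcnq1ot1 only) for Kcnq1ot1, Snhg1 and Snhg12. Coloured bars are the spans of peaks (grey, the peak labelled as a Kcnq1 exon), triangles are runs of 20 or more A in Kcnq1ot1, and exons are those of Snhg1-211 and Snhg12-205. The last peaks of Snhg1 (2.9) and Snhg12 (1.54) end where the genes end, and each triangle lies within the span of a Kcnq1ot1 peak.

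Lists of other long noncoding RNAs were set beside the 7 genes. Of 26 nuclear or chromatin-associated RNAs, 24 were in the annotation, 10 had a peak by identifier and 14 did not. Of these 14, 4 were named by an exon label alone, among them Xist, the RNA that silences the X chromosome, whose labelled peak was listed under its antisense partner Tsix. Their 17 peaks had a median fold enrichment of 7.59, 8 of the 10 genes had a strong peak and 3 had a peak with a p-value under 0.001. The share with a strong peak was 73.1% among long noncoding genes with a peak and 49.6% among all genes with a peak, against 1 of 3, Neat1, among the genes here.

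The most significant peaks of these nuclear RNAs were of both kinds seen above. Those of Dleu2, host of the miR-15 and miR-16 genes, and of the imprinted Meg3 had fold enrichments of 16.1 and 39.8 with log10 p of -11.6 and -8.56, while that of Tug1 had 1.61 and -9.8. Lncpint (2.02 and -2.4) and Ftx (7.59 and -2.28) followed. None of them reached the log10 p of Neat1 or Malat1.

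Of 19 further host genes, 16 were in the annotation, 9 had a peak by identifier and 7 did not, 3 of which were named by a label alone. Their 15 peaks had a median fold enrichment of 3.03, against 2.98 over 61 peaks of all long noncoding host genes. A strong peak was found in 4 of the 9, and 7 had a peak with a p-value under 0.001. The most significant was at Zfas1 (fold enrichment 2.16, log10 p -28.1), which resembled Neat1 peaks 3 and 4 in both values. Snhg11 (101 and -23, annotated as protein-coding), Snhg14 (28.4 and -6.82), an imprinted host, Snhg6 (1.92 and -5.08) and Snhg15 (2.05 and -4.47) came next. Snhg12 was weaker in significance than all 5.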

How the data were processed

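MeRIP-seq was performed on poly(A) RNA of splenic NK cells. According to the methods and the processing notes, the authors trimmed the reads (cutadapt and fastp in the notes), aligned them with HISAT2 to GRCm38, called peaks with exomePeak and annotated them with ChIPseeker. How replicates were combined and whether the libraries kept strand is not given in the sources used here. The deposited fold enrichment is a linear ratio made by the authors of immunoprecipitate over input reads in the peak. The deposited score for significance is the log10 of the unadjusted peak-calling p-value, and the deposited width counts bases of the genome with introns. No column (0) held values of single libraries, so that the depth of each library is unknown and no test was made.

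Of 20751 rows, 24 exact repeats were removed. Groups came from the labels (2 libraries each). Gene models were those of GENCODE M21, whereas the authors name Ensembl V90, and 68 of 68 isoforms of the 7 genes had the same sequence in the genome and in the transcript file. Positions count from the 5′ end of the longest isoform. Overlap was counted from 1 base with the union of exons of all isoforms. For Snhg1 and Snhg12 this union is the whole gene. DRACH, GGAC and GGACT were counted on the strand of the gene, with overlapping sites each counted, in the exonic part of the peaks and outside. Peaks of similar exonic length lay between 0.8 times the length and the length divided by 0.8. The named genes are all 7, and of each comparison list the 5 with the lowest log10 p. The members and lists were chosen with earlier results of these data known. Overlap, position and motif counts were tested on simulated data. Alternatives changed the thresholds, the way a peak is tied to a gene, the treatment of overlapping peaks and the motif. Python 3.11.15, pandas 2.3.3, numpy 2.4.6 and pysam 0.24.0 were used, with matplotlib 3.10.9 for the plots.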

Additional observations from a re-analysis of the deposited data

How the results depend on the processing

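Of 32 alternative values for 6 results, 19 stayed within the limits set, 10 moved and 3 reversed. Those that tied peaks to genes by exon label or by overlap on either strand, took 1 value per place or left out the widest Neat1 peak were chosen after seeing the data. The 13 peaks became 6 when a fold enrichment of 2 or more was asked for, 1 when 5 or more, 8 after merging overlapping peaks and 21 by exon overlap on either strand. The 3 genes with a peak became 1 when 5-fold or more was asked for, 5 by identifier or label and 6 by overlap on either strand, and the 1 gene with a strong peak became 2 by identifier or label. The median fold enrichment of 1.54 became 2.98 with the strongest and 2.36 with the most significant peak of each gene. These moves follow from which peaks are counted. Over Malat1, Neat1 and Snhg12 together, the DRACH density of peaks over that of the remaining exons was 0.809, and it reversed to 1.05 at a fold enrichment under 5, which leaves out Neat1 peak 11 and is the same set as without the widest Neat1 peak (1.05). It was 1.08 by identifier or label. The median centre of the peaks was 11.8% of the transcript length in the longest isoform and in the union of exons. This is the value of Neat1 peak 7, whose position is the same in both, so the comparison could not move it. The Malat1 and Snhg12 peaks were centred at 46.8% and 95.2%.

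The planned overlap by strand used the strand of the listed gene, since the list has none, and gave 15 peaks. No paired analysis was possible because no single library has a value in the list, while the labels give the replicate numbers 1 and 2 to both groups, and leaving out each replicate was not run for the same reason. How far depth limits the genes without a peak could not be computed.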
